A study of Mus musculus with 8 samples.

Results

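Chromosome 8 promoters, the stretches of 1 kb on either side of the 5' end of each protein-coding gene of mouse chromosome 8, were described by their H3K4me3 and by their input tags. The mm9 annotation gave 1082 of them, of 21418 on the 19 autosomes, and the 20336 others served for comparison. The chromosome was chosen by its input: it took an unusually large share of the input tags of menin-null mESCs, so that difference and the mark measured beside it are described here and not tested. The wild-type (wt) cells were mouse embryonic stem cells (mESCs) of the line TC-1 and the menin-null cells those of the line 3.2N, a Men1 knockout, both on the 129S6/SvEvTac background. Each genotype is thus 1 cell line, and what came with the line cannot be told apart from the loss of menin. The mESCs were grown on irradiated feeder fibroblasts with LIF and then freed of feeders. Pancreatic islet-like endocrine cells (PILECs) were differentiated in vitro from each line. Each of these 4 kinds of cells gave 1 library of H3K4me3 ChIP-Seq and 1 of input chromatin, 8 in all. With 1 library per condition no difference could be tested against replicates, and the 95% intervals given here cover counting error only.

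H3K4me3, a trimethylated lysine of histone H3, sits at the start of active and poised genes. The COMPASS-like complexes that contain MLL1 or MLL2, of which menin is a subunit, are among those that write it. Promoters rich in CpG dinucleotides carry most of this mark in stem cells. Input chromatin is sheared and sequenced without antibody, and its tags follow the amount of DNA, how well a stretch shears, amplifies and aligns, and the copy number of the region. Where more input per base comes from more DNA, an antibody is also offered more fragments. The question here was how far the mark at chromosome 8 promoters moved with the input of the chromosome. What lay behind the input differences was not tested.

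The range of promoters can be seen in 5 of them, shown from 250 bases before the annotated 5' end to 50 bases into the gene on the mm9 reference, 5' to 3' on the strand of the gene, with each CG pair in capitals. Klf2 encodes a transcription factor of the pluripotency network and had one of the CG-dense promoters. Dync1li2, a light intermediate chain of cytoplasmic dynein, lies in a short segment with extra input described below. The uncharacterized gene 1700018B08Rik and Fam149a differed most steadily between the genotypes, up and down respectively. Defb1, an antimicrobial beta-defensin, stands for the CG-poor promoters with no mark.
Klf2 (chr8:74842682-74842981, plus strand): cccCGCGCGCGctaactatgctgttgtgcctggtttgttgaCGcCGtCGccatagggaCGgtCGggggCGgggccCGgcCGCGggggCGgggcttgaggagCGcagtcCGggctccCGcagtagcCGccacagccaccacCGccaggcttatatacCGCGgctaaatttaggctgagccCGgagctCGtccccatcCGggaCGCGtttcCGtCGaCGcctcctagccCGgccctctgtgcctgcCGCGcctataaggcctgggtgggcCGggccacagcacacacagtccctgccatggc
Dync1li2 (chr8:106966898-106967197, minus strand): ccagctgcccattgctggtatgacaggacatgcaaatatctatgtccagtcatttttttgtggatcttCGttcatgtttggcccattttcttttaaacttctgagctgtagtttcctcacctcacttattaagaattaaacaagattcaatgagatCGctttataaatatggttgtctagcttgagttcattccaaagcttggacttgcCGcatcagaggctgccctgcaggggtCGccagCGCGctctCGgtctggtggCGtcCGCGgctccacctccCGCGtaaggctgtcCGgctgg
1700018B08Rik (chr8:124065805-124066104, minus strand): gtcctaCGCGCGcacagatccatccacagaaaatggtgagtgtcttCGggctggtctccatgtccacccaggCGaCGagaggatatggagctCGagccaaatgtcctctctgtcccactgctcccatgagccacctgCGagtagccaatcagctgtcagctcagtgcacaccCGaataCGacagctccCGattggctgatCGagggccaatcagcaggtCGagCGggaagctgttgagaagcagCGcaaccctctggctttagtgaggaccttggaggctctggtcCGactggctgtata
Fam149a (chr8:46467596-46467895, minus strand): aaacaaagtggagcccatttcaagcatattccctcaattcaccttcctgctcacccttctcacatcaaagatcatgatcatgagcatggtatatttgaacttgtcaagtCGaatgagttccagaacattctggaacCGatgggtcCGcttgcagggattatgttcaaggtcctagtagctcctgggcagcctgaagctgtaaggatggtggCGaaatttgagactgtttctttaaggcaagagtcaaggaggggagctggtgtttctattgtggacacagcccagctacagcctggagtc
Defb1 (chr8:22886821-22887120, plus strand): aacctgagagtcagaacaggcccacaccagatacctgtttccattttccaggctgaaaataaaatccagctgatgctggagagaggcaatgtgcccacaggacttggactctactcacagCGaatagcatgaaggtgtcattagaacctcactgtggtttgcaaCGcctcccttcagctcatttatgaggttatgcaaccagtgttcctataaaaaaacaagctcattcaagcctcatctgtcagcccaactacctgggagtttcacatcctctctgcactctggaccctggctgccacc
These 300 bases held 33 CG pairs in Klf2, 13 in Dync1li2, 16 in 1700018B08Rik, 4 in Fam149a and 2 in Defb1. Over all 1082 chromosome 8 promoters the median was 15 pairs, with quartiles of 5 and 26.

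Values for the 4 kinds of cells are given in 1 order throughout, wt and then menin-null mESCs, wt and then menin-null PILECs. The H3K4me3 libraries held 2432377, 3517028, 18773635 and 17682677 tags and the inputs 4248298, 3744616, 19016697 and 18120807. Over exons 3 to 8 of Men1 the inputs held 17 tags in wt mESCs and 22 in wt PILECs and none in either menin-null input, where a count of 0 allows up to 3 tags. The promoters of Pou5f1 and Nanog, which mark stem cells, went from 55.9 and 33.3 RPM of H3K4me3, or tags scaled by the size of the library, in wt mESCs to 3.68 and 2.56 RPM in wt PILECs. The third stem cell gene listed, Sox2, kept more of the mark, with 51.4 RPM in wt mESCs and 23.2 RPM in wt PILECs. The hormone genes Ins1, Ins2, Gcg and Iapp had at most 1.23 RPM in all 4 kinds of cells. Of 4 genes of islet transcription factors, Neurod1 had 6.58, 3.13, 7.03 and 5.54 RPM, Pax6 5.34, 5.12, 5.38 and 5.60, Nkx2-2 7.81, 10.2, 4.37 and 6.28 and Pdx1 7.40, 4.26, 1.07 and 1.36. Together the 8 islet genes had 29.2, 23.9, 19.5 and 20.6 RPM, so their sum was no higher in PILECs than in mESCs. Of 5 fibroblast genes, 3 were higher in PILECs, with 0.411, 0, 6.13 and 4.30 RPM at Col3a1, 1.23, 0.569, 5.17 and 5.54 RPM at Pdgfrb and 3.29, 2.84, 5.97 and 6.22 RPM at Col1a1. The other 2 had fewer RPM there, with 3.70, 3.41, 2.82 and 2.21 at Col1a2 and 10.7, 16.5, 4.53 and 6.79 at Thy1. In wt cells 3 of the 5 were at least 1.5-fold higher in PILECs, beside 15.4% of all promoters tested. Lower by as much was 1, beside 23.4%, and Col1a2 was not. In menin-null cells 3 were higher, beside 10.1%, and 2 lower, beside 37.9%. Most of these levels are low. The sum of the fibroblast genes was 19.3, 23.3, 24.6 and 25.1 RPM. Of the neural genes listed, 3 were found and had together 19.3, 26.2, 28.3 and 22.1 RPM. The 3 muscle genes had 19.3, 15.9, 2.88 and 3.17 RPM. What other cells added to the PILEC libraries was not tested.

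Chromosome 8 gave more input per base than the typical autosome in every library. Its 131738871 bases took 6.76% of the autosomal input tags in wt mESCs (95% interval 6.74 to 6.78) and 7.73% in menin-null mESCs (7.71 to 7.76). In PILECs the shares were 5.78% (5.77 to 5.79) in wt and 5.905% (5.89 to 5.92) in menin-null cells. Against the median autosome the input density, on the log2 scale, was 0.39, 0.59, 0.20 and 0.22. Chromosome 8 was thus the densest autosome in both mESC inputs and the second densest, after chromosome 11, in both PILEC inputs. Chromosome 11, the gene-rich autosome nearest to it, had 0.38, 0.33, 0.59 and 0.54. The GC content of chromosome 8, 42.4%, ranked 7 of 19.

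**Figure D1:**
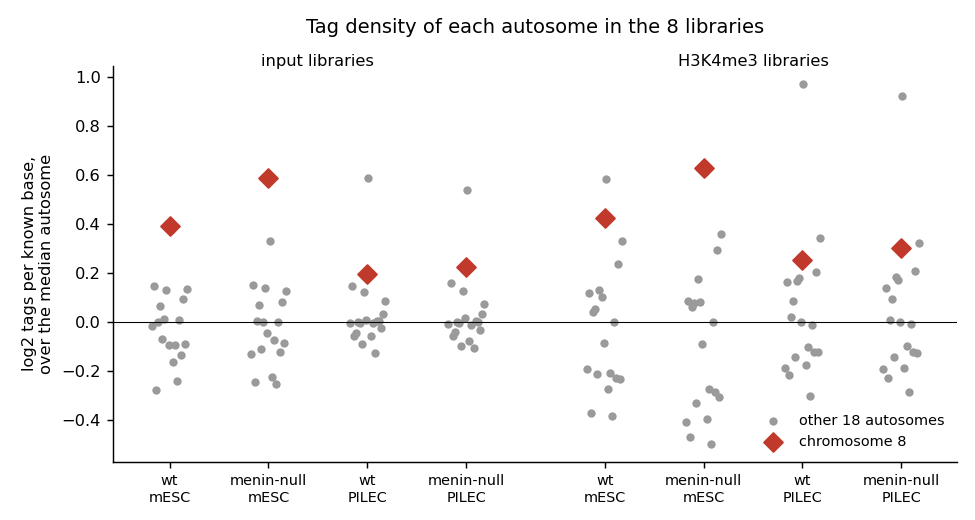
Tags per known base of each autosome in the 8 libraries (log2, relative to the median autosome of that library; points, 1 per autosome). Chromosome 8 (diamonds) stands at 0.39 and 0.59 in the wt and menin-null mESC inputs and at 0.20 and 0.22 in the PILEC inputs, where chromosome 11 lies above it.

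The H3K4me3 libraries had more tags per base of chromosome 8 than of the median autosome too, by 0.42, 0.63, 0.26 and 0.30 on the log2 scale. Chromosome 11 had 0.58, 0.61, 0.97 and 0.92 and was above it in 3 of these 4 libraries, and chromosome 19 was above it in both PILEC libraries. Of the windows 201 of 1082 overlapped another on chromosome 8 and 2838 of 20336 elsewhere. With each tag counted once, chromosome 8 promoters held 63920 tags in wt mESCs and 128315 in menin-null mESCs, or 7.29% (7.23 to 7.34) and 8.47% (8.43 to 8.52) of the tags in autosomal promoters. In PILECs they held 405927 tags in wt and 373163 in menin-null cells, or 6.16% (6.14 to 6.17) and 6.41% (6.39 to 6.43). Sums over promoters given below add up the windows, so that a tag in overlapping windows counts in each and their intervals are somewhat too narrow. The mark itself was also strong on this chromosome. The median chromosome 8 promoter had 22.8, 30.4, 20.6 and 18.4 RPM, where the other autosomes had 10.7, 11.1, 9.06 and 7.86 RPM. At 10 RPM or more were 661, 666, 617 and 614 of the 1082 promoters, or 61.1, 61.6, 57.0 and 56.7%. On the other autosomes these shares were 50.9, 50.9, 49.3 and 48.2%. Of the chromosome 8 promoters 132, 90, 39 and 38 had no tag.

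Chromosome 8 also has more CpG-rich promoters. Of the chromosome 8 promoters 429, or 39.6%, had at least 0.6 of the CG pairs that their base composition would give, the usual bound for a CpG-rich promoter, beside 34.2% on the other autosomes. The median of these CpG-rich promoters was 52.6, 72.8, 41.8 and 40.4 RPM, beside 37.8, 46.3, 37.0 and 33.8 RPM elsewhere. The 653 CpG-poor promoters had medians of 0.959 to 2.06 RPM, but 237, 244, 208 and 206 of them were at 10 RPM or more. In the CpG-rich class the median on chromosome 8 was higher than elsewhere in all 4 libraries, by most in menin-null mESCs.

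Between menin-null and wt mESCs, the input of chromosome 8 was higher by 0.20 on the log2 scale (95% interval 0.19 to 0.20), or 14.6%, relative to the median autosome. The other 18 autosomes had a standard deviation (SD) of 0.037 and ran from -0.11 for chromosome 1 to 0.049 for chromosome 10. H3K4me3 summed over the promoters was higher by 0.22 (0.21 to 0.23), or 16.6%, with an SD of 0.048 over the others. The tags of the H3K4me3 libraries over 10 kb from any annotated start, where little of the mark is found, were higher by 0.21 (0.19 to 0.22), and the input inside the promoter windows by 0.14 (0.11 to 0.18). Promoter mark minus the input of the whole chromosome was 0.026, beside an SD of 0.033 among the other autosomes. Against the input in the same windows it was 0.079, beside an SD of 0.044 and a highest value of 0.082 among the others.

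Between menin-null and wt PILECs these values were far smaller. The input of chromosome 8 was higher by 0.029 (0.025 to 0.033), with an SD of 0.015 over the others, and the summed promoter H3K4me3 by 0.055 (0.049 to 0.060), with an SD of 0.021. Both were the highest of the 19 autosomes. Far from starts the H3K4me3 library was higher by 0.042 (0.036 to 0.048). Mark minus the input of the whole chromosome was again 0.026, beside an SD of 0.026. The input inside the promoter windows had 0.010 (-0.017 to 0.038), and mark minus that input was 0.044, beside an SD of 0.044. The others ran from -0.16 to 0.049, so chromosome 8 was near the top of them.

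From mESCs to PILECs chromosome 8 lost share in both genotypes, and over the whole chromosome the summed mark and input ratios were alike. In wt cells the input was lower by 0.21 in PILECs (log2 ratio -0.21, interval -0.22 to -0.20) and the promoter H3K4me3 likewise (-0.22, -0.23 to -0.21). In menin-null cells the input ratio was -0.42 (-0.43 to -0.42) and that of the promoter mark -0.42 (-0.43 to -0.41). Mark minus the input of the whole chromosome was -0.010 in wt and 0.0011 in menin-null cells, where the other autosomes had SDs of 0.083 and 0.085. The input inside the promoter windows alone had -0.36 (-0.39 to -0.32) in wt and -0.49 (-0.52 to -0.45) in menin-null cells. These were below the ratios of the mark in the same windows by 0.14 and 0.064, beside SDs of 0.19 and 0.20 among the others. Mark minus that input ran from -0.65 to 0.16 among the others in wt and from -0.76 to 0.093 in menin-null cells. Chromosome 8 was thus near the top of them. The SDs include chromosome 2, whose input ratios in the windows were the highest, 0.68 and 0.77. Its windows of Gm10801 and Gm10800 held 45002 and 58145 of its 134983 promoter tags in the wt PILEC input. Chromosome 11 moved the other way from chromosome 8, with promoter H3K4me3 ratios of 0.36 in wt and 0.34 in menin-null cells. These exceeded its input ratios by 0.17 and 0.19. The 4 comparisons share libraries in pairs, so their values are not independent of each other.

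**Figure D2:**
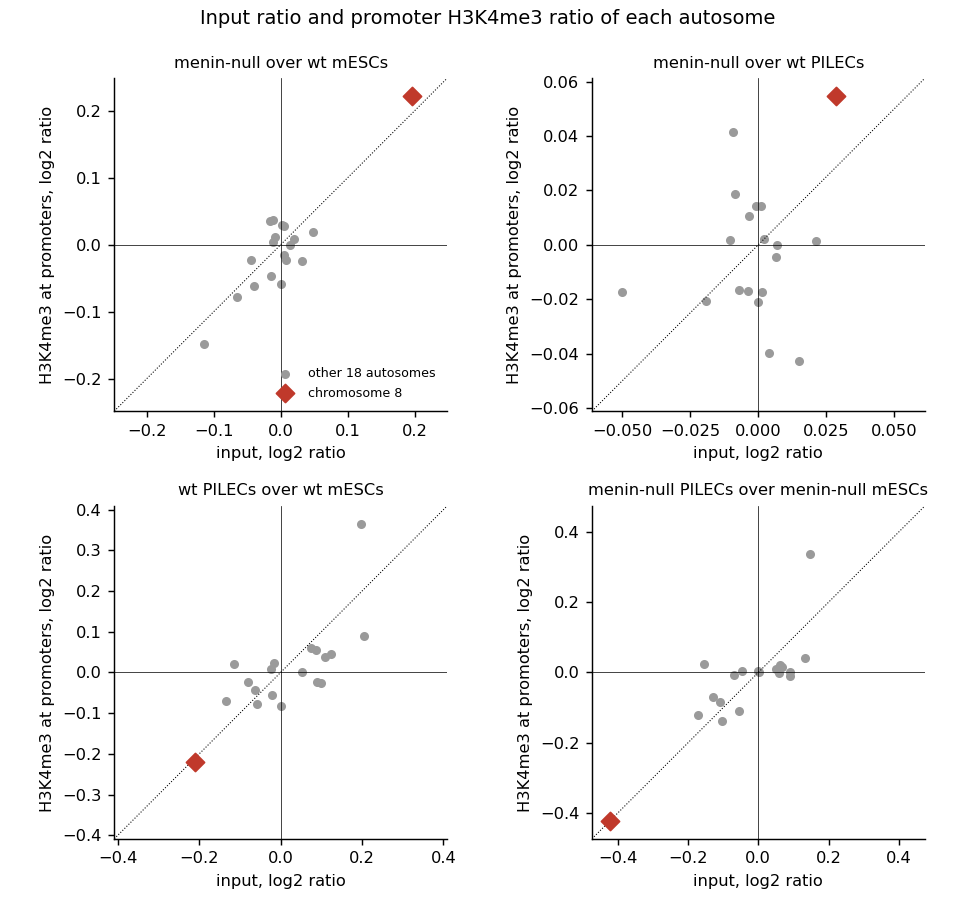
Log2 ratio of the input of each autosome (horizontal) and of the H3K4me3 summed over its promoters (vertical), both relative to the median autosome, for the 4 comparisons named above the panels; axes differ between panels and the dotted line marks equality. Chromosome 8 (diamond) lies within 0.026 of the dotted line in each, from 0.20 and 0.22 in mESCs to -0.42 and -0.42 in menin-null cells.

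Across the 19 autosomes the input and promoter ratios had a Pearson correlation of 0.89 for the genotypes in mESCs, 0.21 in PILECs, 0.74 for the stages in wt cells and 0.82 in menin-null cells. Without chromosome 8 the 18 others had 0.73, -0.04, 0.66 and 0.65. These are descriptions over chromosomes that share their libraries and differ in gene density and base composition.

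The excess was spread over promoters of every level. All autosomal promoters were put in 5 classes of equal size by their mean H3K4me3 over the 4 libraries, and chromosome 8 had 132, 215, 176, 173 and 386 promoters in them, from the lowest to the highest class. In mESCs the H3K4me3 of menin-null over wt cells on chromosome 8, relative to the other autosomes in the same class, was 0.22, 0.31, 0.19, 0.21 and 0.21 on the log2 scale. Only the lowest class, with 42 tags in wt and 80 in menin-null cells, had an interval that reached 0 (-0.34 to 0.79). The input in the same windows gave 0.23, 0.20, 0.21, 0.21 and 0.14. In PILECs the H3K4me3 values were 0.14, 0.14, 0.072, 0.060 and 0.040, where the lowest class had an interval that reached 0 (-0.019 to 0.31). The input there gave -0.088, 0.061, 0.063, -0.0011 and -0.029, with intervals that held 0 in all 5 classes. CpG-rich promoters gave 0.22 (0.20 to 0.23) and CpG-poor ones 0.27 (0.25 to 0.30) in mESCs.

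It was also spread along the chromosome. The chromosome was cut into 14 stretches of 10 Mb. The last, from 130 Mb to its end, was shorter and had 6 promoters. In each the menin-null mESC input exceeded that of wt mESCs, by 0.15 to 0.30 on the log2 scale relative to the other autosomes. The promoter H3K4me3 was higher by 0.11 to 0.32, and the medians were 0.22 for input and 0.21 for the mark. In the last stretch the interval of the mark held 0 (-0.037 to 0.49). In PILECs the input ratio of the stretches was 0.015 to 0.094, above 0 in 14 of 14, and that of promoter H3K4me3 -0.030 to 0.17, above 0 in 9 of 14. Both highest values there, 0.094 and 0.17, were those of the stretch from 100 to 110 Mb, which holds the segment described below. The other stretches reached 0.046 for input and 0.11 for the mark. The stage comparison was uneven, with input ratios from -0.75 to 0.40 in wt cells and from -0.88 to 0.13 in menin-null cells. The ratios of promoter H3K4me3 were from -0.42 to 0.46 and from -0.62 to 0.33, and both highest ones were those of the short last stretch. Mark and input did not always move together from stretch to stretch. Between the mESCs the stretch from 120 to 130 Mb had the lowest input ratio, 0.15, and the highest mark ratio, 0.32, while that from 50 to 60 Mb had the highest input ratio, 0.30, and a mark ratio of 0.14. Between the wt stages the same 2 stretches had input ratios of -0.75 and 0.40 and mark ratios of -0.37 and 0.016.

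Single promoters showed the shift in mESCs and hardly in PILECs. With 20 or more tags in the 2 mESC libraries, 732 chromosome 8 promoters could be compared, and their median log2 ratio of RPM, with 1 tag added to each count, was 0.44 (quartiles 0.24 and 0.60). The 12026 others had a median of 0.21 (quartiles -0.011 and 0.41). The H3K4me3 library of menin-null mESCs had 43.1% of its tags in promoters, each counted once, and that of wt mESCs 36.1%, so most promoters had a ratio above 0 by RPM, with a median of 0.23 over all of them. At least 1.5-fold higher in menin-null mESCs were 200 of the 732, or 27.3%, beside 10.7% of all promoters tested. Lower by as much were 16, or 2.19%, beside 3.43%. When the libraries were scaled by promoter tags instead, which takes this difference out, 40 were higher, or 5.46%, beside 2.01%, and 29 lower, or 3.96%, beside 8.24%. An interval above 0 was found for 430 promoters, or 58.7%, beside 26.6%, and one below 0 for 7, beside 1.73%. By RPM 18 were 2-fold higher, beside 0.941% of all tested, and 4 as much lower, beside 0.815%. With scaling by promoter tags 1 was 2-fold higher, or 0.137%, beside 0.235%, and 10 lower, or 1.37%, beside 1.99%. The calls and medians use counts with 1 tag added, while the ratios of single genes given further on are those of RPM itself.

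In PILECs 923 chromosome 8 promoters had 20 or more tags, a bound that many promoters near background pass at that depth. Their median ratio was -0.026, beside -0.079 for the 15664 others. At least 1.5-fold higher in menin-null PILECs were 64, or 6.93%, beside 5.56% of all tested, and lower were 46, or 4.98%, beside 6.77%. At 2-fold it was 16, beside 1.7%, and 10, beside 1.5%. With scaling by promoter tags 80 were 1.5-fold higher, beside 7.04%, and 29 lower, beside 4.84%, and 25 were 2-fold higher, beside 2.19%, and 4 lower, beside 1.06%. These shares are near the background. Among the 718 with 50 or more tags more were lower than higher, as among all promoters. By 1.5-fold 12 were higher, or 1.67%, beside 1.02%, and 25 lower, or 3.48%, beside 5.12%. Among the 679 with at least 3 times the input in 1 of the libraries, with 1 tag added to the input, 10 were higher, or 1.47%, beside 0.809%. Lower were 19, or 2.80%, beside 4.65%. Relative to all promoters tested, chromosome 8 thus had somewhat more higher and fewer lower with either bound. Outside the segment described below it did not have more higher. There 6 of 703, or 0.853%, were higher with 50 or more tags, and 4 of 665, or 0.602%, with at least 3 times the input. Over all 923, an interval above 0 was found for 82, beside 5.28%, and one below 0 for 163, beside 24.1%. The difference of the medians, 0.052, was small beside that of 0.23 in mESCs.

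**Figure D3:**
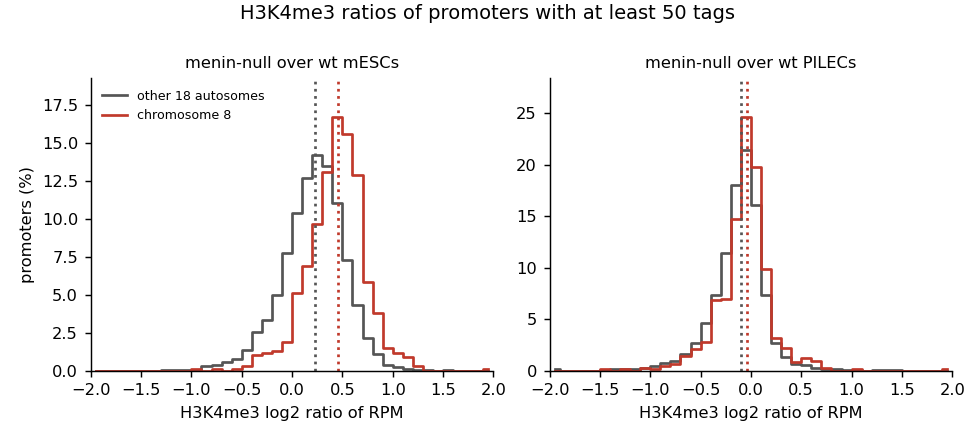
Share of promoters (percent, vertical) by log2 ratio of H3K4me3 RPM, menin-null over wt (horizontal, bins of 0.1, values beyond 2 placed in the end bins), for promoters with at least 50 tags, 680 on chromosome 8 and 10757 elsewhere in mESCs and 718 and 11928 in PILECs. Dotted lines mark the medians, which were 0.45 on chromosome 8 and 0.23 elsewhere in mESCs and -0.044 and -0.096 in PILECs.

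One short segment of chromosome 8 stood apart from the rest. It was found, after the values had been seen, by going through 11996 bins of 200 kb on all autosomes in the PILEC inputs. A stretch counted where the running median of the log2 ratio passed 0.3 in either direction over 5 or more bins, and 2 did, 1 of them on chromosome 8. From 106.8 to 107.8 Mb the input of PILECs held 8377 tags in wt and 11323 in menin-null cells. Relative to the rest of chromosome 8 the log2 ratio was 0.48 (0.44 to 0.52), or 1.39-fold. The 1 Mb before the segment had a ratio of 0.046 and the 1 Mb after it 0.017. The limits of the segment were taken from the PILEC inputs.

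In the mESC inputs the same segment held 2418 tags in wt and 3218 in menin-null cells. The log2 ratio was 0.41 (0.33 to 0.48) over the rest of the chromosome, or 1.32-fold, beside 0.038 and -0.011 in its neighbours. Chromosome 8 had been chosen from the mESC inputs, and the same search was also run on them, as given at the end. They are thus no independent check of the segment. In steps of 10 kb, the edges that best split the inputs lay at 106.78 and 107.78 Mb in PILECs and at 106.76 and 107.78 Mb in mESCs. The single bins inside had ratios of 0.45 to 0.54 in PILECs, relative to the other autosomes, and those up to 4 Mb away had -0.042 to 0.20. In mESCs the bins inside had 0.52 to 0.78 and those outside 0.0081 to 0.44. Whether menin-null cells have more of this segment or wt cells less cannot be told apart from these ratios.

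**Figure D4:**
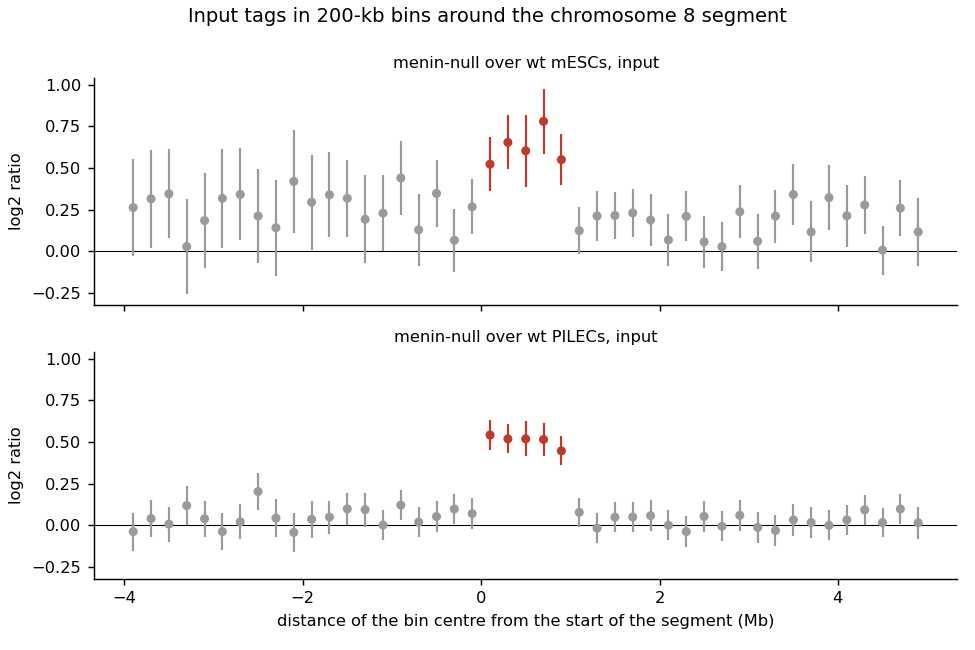
Log2 ratio of input tags, menin-null over wt, relative to the other autosomes (vertical), in 200-kb bins by distance from the start of the segment (horizontal, Mb), in mESCs (top) and PILECs (bottom); bars are 95% counting intervals. The 5 bins of the segment (dark) lie at 0.52 to 0.78 in mESCs and at 0.45 to 0.54 in PILECs, and the 40 bins around them reach 0.44 and 0.20.

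H3K4me3 was higher in the segment as well. With each tag counted once, its 32 promoters held 7507 H3K4me3 tags in wt and 9803 in menin-null PILECs, a log2 ratio of 0.52 (0.47 to 0.56) over the promoters of the rest of chromosome 8. Summed over windows, the promoters of the 1 Mb before and after had -0.016 and 0.051. In mESCs the 32 held 1125 tags in wt and 2845 in menin-null cells, a ratio of 0.34 (0.24 to 0.44). Tags of the H3K4me3 libraries over 10 kb from starts gave 0.64 (0.55 to 0.72) in PILECs and 0.43 (0.22 to 0.65) in mESCs. By this measure the 1 Mb before and after had 0.041 and 0.037 in PILECs and -0.10 and 0.28 in mESCs, the last inside the interval of the segment. All these ratios of the segment were above 0. Regions of H3K4me3 far from starts were not taken out of the tags over 10 kb from them.

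Of the 32 promoters 28 had 20 or more tags in PILECs, and 16 of these were at least 1.5-fold higher in menin-null PILECs and none lower by as much. On the rest of chromosome 8 it was 48 of 895, or 5.36%. With 50 or more tags, 6 of 15 in the segment and 6 of 703 outside it were higher by 1.5-fold, and with at least 3 times the input 6 of 14 and 4 of 665. The window shared by Nae1 and Car7 counts as 2 among these 6. In mESCs 16 could be compared, of which 8 were higher by 1.5-fold, beside 192 of 716 on the rest of the chromosome.

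The following genes of the segment were named after their values were seen, except those that the rules for named genes had given. Cmtm3 and Cmtm4 encode MARVEL-domain membrane proteins. H3K4me3 at Cmtm3 was 26.7, 33.8, 24.0 and 39.4 RPM, and in PILECs the log2 ratio was 0.72 (0.54 to 0.89). That at Cmtm4 was 55.1, 121, 39.7 and 48.6 RPM, with ratios of 1.14 (0.85 to 1.43) in mESCs and 0.29 (0.15 to 0.44) in PILECs. Both neighbours were higher in the menin-null library at each stage, though the mESC interval of Cmtm3 held 0, and Cmtm4 by more in mESCs and Cmtm3 by more in PILECs.

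Dync1li2, whose sequence is given above, has its 5' end at position 106966947 and had 51.0, 119.7, 55.5 and 87.9 RPM. Its ratios were 1.23 (0.94 to 1.53) and 0.66 (0.55 to 0.78). The window shared by Nae1, a subunit of the enzyme that activates NEDD8, and the carbonic anhydrase gene Car7 had 41.9, 86.2, 38.6 and 60.5 RPM, with ratios of 1.04 and 0.65. Fam96b, a factor of cytosolic iron-sulfur assembly, had 41.1, 74.2, 60.8 and 83.4 RPM. These windows were higher in the menin-null library at both stages.

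At Pdp2, a phosphatase of the pyruvate dehydrogenase complex, the ratios were 0.86 (0.43 to 1.30) in mESCs and 0.31 (0.14 to 0.47) in PILECs, and at Cbfb, the partner of the RUNX factors, 0.55 (0.28 to 0.82) and 0.29 (0.14 to 0.44). B3gnt9-ps, annotated as a coding gene in spite of its name, lies just inside the fitted distal edge of 107.78 Mb, with its 5' end at position 107779053. It had 18.5, 44.9, 15.2 and 25.3 RPM, and ratios of 1.28 (0.79 to 1.79) and 0.73 (0.52 to 0.95). Not all members of the segment were higher. Ccdc79 had 4.37 RPM in wt and 3.34 in menin-null PILECs, a ratio of -0.39 with an interval that held 0. Tradd and Fbxl8, which share most of a window, have 5' ends at 107788509 and 107788548 and had PILEC ratios of -0.23 (-0.43 to -0.03) and -0.22 (-0.41 to -0.02), both below 0. Hsf4, a heat shock factor gene with its 5' end at 107793701, had 0.12 (-0.17 to 0.41). These 3 lie past the fitted edge of 107.78 Mb and are counted among the 32. Between the neighbours B3gnt9-ps and Tradd the ratio went from 0.73 to -0.23.

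Of promoters around the segment, 4 are given here. Tk2, the mitochondrial thymidine kinase, and the chemokine-like gene Cklf start at 106772458 and 106774803 and had PILEC ratios of -0.062 and 0.012. They lie before the edge fitted in PILECs, 106.78 Mb, but past the one fitted in mESCs, 106.76 Mb. Further out, E2f4, a cell cycle factor, had -0.02 and the insulator factor gene Ctcf -0.12.

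**Figure D5:**
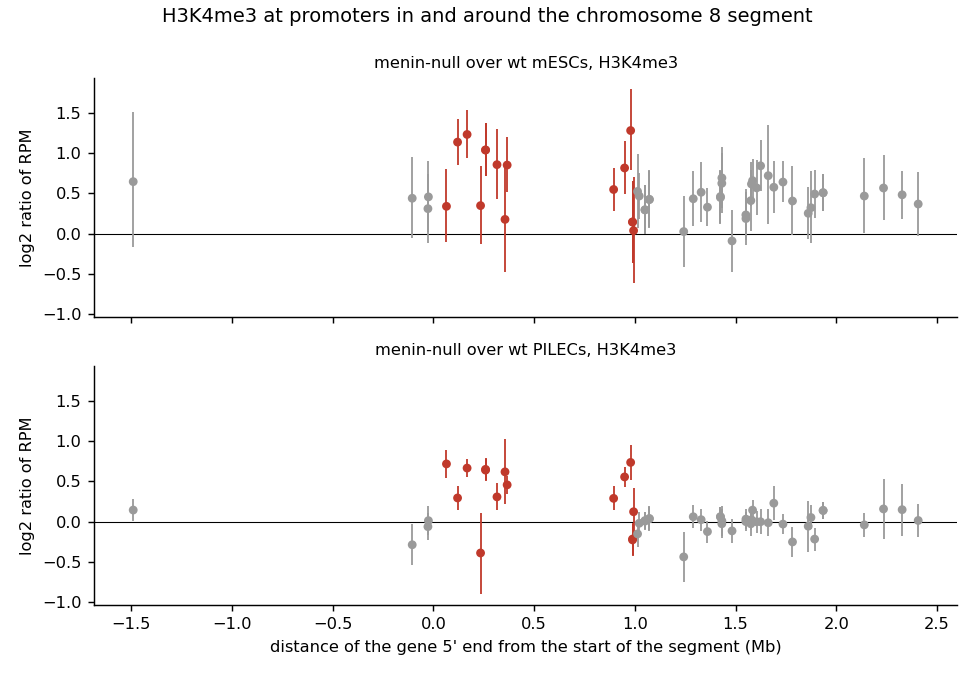
Log2 ratio of H3K4me3 RPM, menin-null over wt (vertical), at single promoters by distance of the gene 5' end from the start of the segment (horizontal, Mb), in mESCs (top) and PILECs (bottom), for promoters with at least 50 tags at both stages; bars are 95% counting intervals. The 15 promoters of the segment (dark) have medians of 0.82 in mESCs and 0.46 in PILECs, and the 39 around it 0.46 and 0.0087.

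The carboxylesterase genes Ces2a to Ces2h, Ces3a, Ces3b and Ces4a fill the middle of the segment and are CpG-poor. None had more than 1.47 RPM of H3K4me3 in any library. Ces2b had 0, 1.42, 0.426 and 1.13 RPM, and Ces4a 1.23, 1.42, 0.426 and 1.47 RPM. No tag at all fell in the window of Ces2d-ps in any library, input included.

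Of the promoters with 20 or more tags at both stages, 1700018B08Rik was the only one at least 2-fold higher in menin-null cells at both stages. H3K4me3 there had 25, 164, 22 and 82 tags, or 10.3, 46.6, 1.17 and 4.64 RPM. Its log2 ratio reached 2.18 (1.57 to 2.85) in mESCs and stood at 1.98 (1.29 to 2.73) in PILECs. Its input held 13, 14, 21 and 19 tags, which shows no such difference. The 5' end is at position 124065854 on the minus strand, and its CG pairs are shown above. Zcchc14, a zinc finger gene with its 5' end at 124176801, had 52.2, 115.2, 51.9 and 51.8 RPM, with 1.14 (0.85 to 1.44) in mESCs and -0.0022 in PILECs.

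Fam149a was the only one at least 2-fold lower in both. It had 19, 10, 50 and 19 tags, or 7.81, 2.84, 2.66 and 1.07 RPM, with ratios of -1.46 (-2.73 to -0.28) and -1.31 (-2.15 to -0.52). Its input held 11, 4, 23 and 21 tags. The counts behind these ratios are small. In RPM its input was 2.59, 1.07, 1.21 and 1.16, so between the mESCs the input was lower in menin-null cells as well.

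By RPM, 2 of the 680 promoters with at least 50 tags were at least 1.5-fold lower in menin-null mESCs, or 0.294%, beside 1.49% of all tested. Lowest among those with at least 50 tags were Spata2L at -0.95 (-1.72 to -0.19), with 14.8 RPM in wt and 7.68 in menin-null cells, and Lpl, the lipoprotein lipase gene, at -0.77 (-1.47 to -0.07), with 16.4 and 9.67 RPM. Nek3, Chst5 and the cadherin gene Cdh13 followed at -0.58, -0.43 and -0.43, with intervals that held 0. Lpl was also lower in menin-null PILECs, at -0.44 (-0.75 to -0.12), and Spata2L higher, at 0.35 (0.16 to 0.54).

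In PILECs the lowest were Adcy7, an adenylate cyclase gene, with 46 tags in wt and 15 in menin-null cells and a ratio of -1.53 (-2.48 to -0.66), Fam149a, Pdgfrl at -1.10 (-1.89 to -0.35), the phosphatase gene Dusp26 at -1.07 (-1.66 to -0.51) and the meiotic gene Tex15 at -0.97 (-1.41 to -0.53). Apart from Fam149a their mESC intervals held 0. All 5 had at most 7.30 RPM in wt PILECs, and Adcy7 and Fam149a, with 2.45 and 2.66 RPM beside 1.21 RPM of input each, and Pdgfrl, with 2.66 beside 0.841 RPM, did not reach 3 times the input with 1 tag added to it. Highest after 1700018B08Rik were the receptor gene Gpr56 at 1.05 (0.19 to 1.95), with 18 and 35 tags, or 0.959 and 1.98 RPM beside 1.26 and 1.16 RPM of input, which is also below 3 times the input, and then B3gnt9-ps, Cmtm3 and Dync1li2 of the segment.

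The strongest marks on the chromosome were at shared promoters of housekeeping genes. Mau2, which encodes the loader of cohesin, and the splicing factor gene Sugp1 share a window with 116, 163, 102 and 105 RPM. Cog8 of the Golgi complex and Nip7 of ribosome assembly share one with 130, 189, 82.5 and 82.2 RPM. Pcid2 shares one with Cul4a, the scaffold of a ubiquitin ligase, and had 111, 167, 83.6 and 82.6 RPM. The ratios of these 5 genes ran from 0.49 to 0.59 in mESCs, not far from the median of 0.44 over the chromosome, and between -0.02 and 0.05 in PILECs.

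Genes of core cell functions carry the mark in most cells. Of 24 named, 23 had enough tags in mESCs, all 23 were above 0, beside 90.7% on the chromosome, 21 were above the median of all promoters, beside 76.6%, and 7 were at least 1.5-fold higher, beside 27.3% on the chromosome, with a list median of 0.46. Calr, the chaperone calreticulin, had 60.8, 96.1, 69.7 and 73.0 RPM. Rpl13, of the large ribosomal subunit, had 59.6, 94.1, 37.1 and 41.7 RPM, and Slc25a4, the ATP carrier of mitochondria, 28.0, 47.5, 36.6 and 36.9 RPM. In PILECs their list median was 0.0053 and none of 24 passed 1.5-fold in either direction, beside 5.56% higher and 6.77% lower of all tested. Prkaca, a catalytic subunit of protein kinase A, had the lowest ratio there, -0.41 (-0.55 to -0.26). The one left out in mESCs, Spg7, had no tag there in wt and 3 in menin-null cells.

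Among genes of insulin action, secretion and metabolism, 9 of 14 could be compared in mESCs, 5 were at least 1.5-fold higher, beside 27.3% on the chromosome and 10.7% of all tested, and 1, Lpl, was lower, beside 2.19% and 3.43%. The insulin receptor gene Insr had 26.3, 51.5, 46.8 and 47.1 RPM, a ratio of 0.97 (0.55 to 1.40) in mESCs and 0.01 (-0.13 to 0.15) in PILECs. Irs2, its substrate, had 75.6, 118, 58.1 and 60.3 RPM. Eif4ebp1, the repressor of translation that insulin signalling inactivates, had 74.0, 126, 31.4 and 31.4 RPM. The other 2 higher were Acsl1 and Ucp1, at 0.60 and 0.87. In PILECs 13 could be compared and none passed 1.5-fold either way, a count near the 5.56% higher and 6.77% lower of all tested.

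Of 5 pluripotency genes, 4 had 20 or more tags in mESCs, and Nanos3 had 6 in each genotype, or 2.47 and 1.71 RPM beside 1.65 and 2.40 RPM of input. Klf2 had 71.9, 113, 18.4 and 17.6 RPM, and a ratio of 0.66 (0.40 to 0.92) between the genotypes in mESCs. Of the 4 tested it alone was past 1.5-fold, beside 27.3% on the chromosome and 10.7% of all tested, while Sall1 and the E-cadherin gene Cdh1 had 0.48 each and Zfp42 0.25, and in PILECs none of 4 was, beside 5.56% and 6.77%. Of the AP-1 and KLF genes, Klf1 had 0.90 (0.32 to 1.52) in mESCs and Junb 0.39 (0.09 to 0.69), and Junb had 0.52 (0.31 to 0.74) in PILECs. Jund, whose product binds menin, had 7.81, 7.68, 8.74 and 8.03 RPM and intervals that held 0 at both stages.

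Developmental regulators had a list median of 0.36 in mESCs, beside a median of 0.44 and quartiles of 0.24 and 0.60 on the chromosome. Of the 20 listed, 18 were found among its promoters, and all 18 had enough tags. Of these 1, the forkhead gene Foxf1a, was at least 1.5-fold higher (0.63, 0.09 to 1.18), beside 27.3% on the chromosome and 10.7% of all tested, none was lower, beside 3.43%, and 13 were above the median of all promoters, beside 76.6% on the chromosome. Irx3 had 21.8, 20.8, 26.8 and 25.2 RPM and Maf, a basic leucine zipper factor, 15.2, 12.2, 27.4 and 28.6 RPM, both with intervals that held 0 between the genotypes. In PILECs 1 of the 18, Foxc2, was at least 1.5-fold higher, at 0.64 (0.33 to 0.96), beside 5.56% of all tested. Lower by as much was 1, Nfix, at -0.64 (-0.98 to -0.31), beside 6.77%. The list median there was -0.11, and 7 were above the median of all promoters, beside 59.7% on the chromosome. Intervals below 0 were also found for Zfhx3 at -0.51, Irx6 at -0.49, Irx5 at -0.25 and Sall1 at -0.20. Those of Foxf1a at 0.40 (0.15 to 0.66) and Nr3c2 at 0.21 (0.06 to 0.36) were above 0. On the chromosome 17.7% of promoters tested had an interval below 0 and 8.88% one above 0. Among all tested these shares were 24.1% and 5.28%.

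The other lists held few marked promoters. Of the metallothioneins, which bind zinc and copper, Mt3 had 1.18 (0.32 to 2.12) in mESCs, while Mt2 had 0.41 and Mt1 -0.13, and Mt4 had at most 9 H3K4me3 tags in any library. None of the 35 defensin promoters reached 20 tags in mESCs, and the highest had 1.23 RPM. Among them 21 had no tag in wt mESCs and 12 none in menin-null mESCs. The windows of the alpha-defensin genes Defa5 and Defa23 held no tag in any input either, so a 0 there says nothing about the mark. Those of beta-defensin genes did take tags, with 18 and 18 in the PILEC inputs at Defb12 and 26 and 20 at Defb13, and both had no H3K4me3 tag in wt mESCs. The mESC libraries were shallower, and the wt mESC input held only 2 tags at Defb12. A 0 in wt mESCs thus says little about the mark there. In PILECs 8 of them reached 20 tags. Of genes of other tissues, 6 of 11 could be compared in mESCs. The receptor gene Npy1r had 8.22, 2.84, 6.76 and 4.47 RPM and was lower at both stages, at -1.53 (-2.79 to -0.37) and -0.60 (-1.02 to -0.18), while its neighbour Npy5r had 0.95 in mESCs with an interval that held 0.

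Between the stages single genes differed by far more. In wt cells 64 of 775 chromosome 8 promoters were at least 1.5-fold higher in PILECs, beside 15.4% of all tested, and 257, or 33.2%, lower, beside 23.4%. At 2-fold it was 26, beside 6.33%, and 148, beside 15.2%. With scaling by promoter tags 67 were 1.5-fold higher, beside 16.3%, and 247 lower, beside 22.7%, and 27 were 2-fold higher, beside 6.6%, and 144 lower, beside 14.7%. In menin-null cells 42 of 806 were higher, beside 10.1%, and 469, or 58.2%, lower, beside 37.9%, and with scaling by promoter tags 80 were higher, beside 20.6%, and 318 lower, beside 24.3%. At 2-fold it was 24, beside 5.24%, and 297, beside 23%, or by promoter tags 37, beside 9.38%, and 185, beside 15%. An interval below 0 was found for 359 in wt cells, beside 29.4%, and for 569 in menin-null cells, beside 49.8%. One above 0 was found for 111, beside 23.4%, and for 46, beside 14.8%. The pluripotency genes were lower in 4 of 4 tested in each genotype. Zfp42, a marker of undifferentiated cells, had 23.4, 27.9, 1.33 and 1.36 RPM, with stage ratios of -4.14 (-4.88 to -3.44) in wt and -4.36 (-5.07 to -3.70) in menin-null cells.

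The cadherins join cells of like kind. In wt cells 3 of 7 tested were at least 1.5-fold higher in PILECs, beside 15.4% of all tested, and 3 lower, beside 23.4%, and in menin-null cells 4 of 8 were higher, beside 10.1%, and 3 lower, beside 37.9%. Cdh1 had 58.4, 81.6, 8.52 and 9.44 RPM, and its neighbour Cdh3, the P-cadherin gene, 31.7, 46.9, 6.34 and 7.07 RPM. Both epithelial cadherins were lower in PILECs in each genotype. Cdh15, a cadherin of muscle, was lower too, at -1.59 (-2.91 to -0.08) in wt and -2.24 (-3.32 to -1.16) in menin-null cells. It was near background, with 2.88, 4.55, 0.959 and 0.961 RPM beside 2.12, 1.34, 1.42 and 0.717 RPM of input. Cdh11, a cadherin of mesenchyme, had 7.81, 12.2, 47.5 and 52.4 RPM and stage ratios of 2.60 (1.95 to 3.34) and 2.10 (1.66 to 2.58). Cdh8 and Cdh13 were higher too, at 1.57 and 1.10 in wt cells and 1.06 and 1.58 in menin-null cells. The intervals of Cdh5 and Cdh16 held 0 in each genotype, and Cdh16 is the fourth counted as higher in menin-null cells.

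Of the genes of insulin action, secretion and metabolism, 10 could be compared between the stages in each genotype. In wt cells 3 were at least 1.5-fold higher in PILECs, beside 15.4% of all tested, and 4 lower, beside 23.4%. In menin-null cells 1 was higher, beside 10.1%, and 6 lower, beside 37.9%. Cpe, which trims prohormones, had 18.1, 25.02, 39.0 and 33.5 RPM. It was higher in PILECs at 1.11 (0.67 to 1.58) in wt and 0.42 (0.09 to 0.76) in menin-null cells. Plat, the tissue plasminogen activator gene, had 5.34, 3.98, 21.8 and 23.6 RPM, with stage ratios of 2.03 (1.24 to 2.95) and 2.57 (1.81 to 3.45). Gdf15 had 13.6, 19.6, 0.959 and 0.961 RPM and was lower at -3.82 and -4.35. The core genes were lower by 1.5-fold in 4 of 23 in wt cells, beside 33.2% on the chromosome and 23.4% of all tested, and 17 of 23 in menin-null cells, beside 58.2% and 37.9%, where the menin-null H3K4me3 libraries had 43.1% of their tags in promoters in mESCs and 32.9% in PILECs, each counted once.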

How the data were processed

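The authors deposited 1 line per aligned tag and library on mm9, with 36-bp tags from a Genome Analyzer II. The study's methods keep reads with a unique location and up to 2 mismatches, while 1.04 to 1.81% of the deposited tags had more. The aligner is not given in the sources used here. The deposited score of each tag, 4 to 119, comes from the authors' alignment and was not used, and its meaning is not stated.

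Each tag was moved to the middle of a 250-bp fragment and counted in windows of 1 kb on either side of the 5' end of protein-coding genes of the mm9 annotation (GENCODE M1). RPM used all tags of a library. Sums over a chromosome were taken as shares of autosomal tags and centred on the median of the 19 autosomes. Ratios of single promoters needed 20 tags in both libraries together, and a call 1.5-fold. Intervals are exact binomial (Clopper-Pearson, 95%). The 12 windows with over 10 times the median input, none on chromosome 8, were left out of the classes. The libraries held 2432377 to 19016697 tags, and mESC libraries were several times shallower than PILEC ones, so their single promoters are less precise.

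Members and lists were chosen with earlier results of these data known. Genes named are those of the lists, the 5 with the largest difference in each direction among promoters with 50 or more tags, the 5 with the most H3K4me3, and those past 2-fold in the same direction at both stages. Scripts ran in Python 3.11.15 with numpy 2.4.6, pandas 2.3.3, scipy 1.17.1 and matplotlib 3.10.9 and were tested on simulated data. The alternatives were other windows, tag minimums, scalings and tag added, 1 tag per position and strand, thinned PILEC libraries and division by the input ratio of the chromosome. Added after seeing the data were a mark of at least 3 times the input, each tag counted once, and leaving out the segment of chromosome 8.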

Additional observations from a re-analysis of the deposited data

How the results depend on the processing

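No paired analysis was possible because each condition had 1 library, and for the same reason none could be left out. The input share of chromosome 8 kept its direction under every alternative run for it, at 0.19 to 0.22 between the genotypes in mESCs and 0.024 to 0.032 in PILECs. Dividing by the input ratio of the whole chromosome removed most of the difference in summed H3K4me3 in mESCs and between the stages. It left 0.026 in mESCs, -0.010 between the wt stages and 0.0011, a change of sign, between the menin-null stages. In PILECs it left 0.026 of 0.055. The difference between the median of single chromosome 8 promoters and that of the others became 0.033, 0.024, -0.052 and -0.0022. The counts past 1.5-fold became 61 higher and 25 lower in mESCs, 108 higher between the wt stages, and 90 higher and 297 lower between the menin-null stages. Scaling by promoter tags gave 40 higher and 29 lower in mESCs, 29 lower in PILECs and 80 higher between the menin-null stages. A minimum of 10 tags gave 29 lower in mESCs and 66 higher between the menin-null stages, and one of 50 tags gave 2 lower in mESCs and 12 higher and 25 lower in PILECs. A mark of at least 3 times the input, chosen after seeing the data, gave 9 lower in mESCs and 10 higher and 19 lower in PILECs. Windows of 500 bp gave 21 higher in PILECs, those of 2 kb gave 69 higher between the menin-null stages, and thinned PILEC libraries gave 13 higher in PILECs. Of 197 values of named genes, 21 left their counting interval with windows of 500 bp, 12 with scaling by promoter tags, 2 with 1 tag per position and strand and 2 with windows of 2 kb, where Cdh11 in PILECs also went to -0.020, and none with the 5' end of the tag or at most 2 mismatches. Without the segment, also chosen after seeing the data, PILECs had 0.024 for input, 0.044 for summed H3K4me3 and 48 promoters higher. With each tag counted once, also chosen after seeing the data, summed H3K4me3 had 0.22, 0.057, -0.23 and -0.42. The cause of these changes was not tested.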

Other observations

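In the mESC inputs the same search for stretches of 200-kb bins found 10, of which 3 were on chromosome 8 and had more input in menin-null cells. Beside the one from 106.6 to 107.8 Mb, with a median log2 ratio of 0.55, these ran from 38.8 to 40.4 Mb, at 0.37, and from 54.6 to 55.8 Mb, at 0.32. Neither of those was found in the PILEC inputs. As the whole of chromosome 8 was higher by 0.20 in that comparison, its bins passed the bound of 0.3 more easily than those of other autosomes. The other stretch in the PILEC inputs had less input in menin-null cells and lay on chromosome 5, from 94 to 95.6 Mb, at -0.51.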
